A study of Triticum polonicum with 10 samples.

Results

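The 129 genes described here were higher with cadmium than without it at every iron supply of a root experiment on dwarf Polish wheat, by a log2 difference of at least 1.5 (2.83-fold) in each of 5 pairs of libraries. They were drawn from the 21594 gene IDs on chromosomes 1 to 7 of subgenomes A and B that carry no LC (low-confidence) suffix and had a mean level of at least 5 CPM (counts scaled to the library total), of 274924 IDs in all. The values that chose them were the differences in log2(CPM + 0.5) between the libraries of each pair, so their cadmium differences are given as a description with no test. They made up 0.597% of the genes that could have been chosen. The same limits in the other direction held for 28 genes.

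Dwarf Polish wheat (Triticum polonicum) is a tetraploid that carries the A and B subgenomes. Roots of 4-week-old seedlings were taken after 1 week of treatment, and 1 RNA library represents each of 10 treatments. The labels name a control with no addition, 80 µM CdCl2 alone, FeCl3 at 50 or 200 µM, the same FeCl3 doses with 80 µM CdCl2, and 4 treatments with Fe2(SO4)3. The study asked how 2 chemical forms of iron fertiliser bear on the cadmium response. For 3 of the 4 Fe2(SO4)3 libraries the title code and the treatment text disagree. The library coded B50CK is described as 200 µM with cadmium, B50Cd as 50 µM without cadmium, and B200Cd as 50 µM with cadmium. B200CK has the same treatment in both, 200 µM without cadmium. The choice of members read these libraries by code, in which CK stands for no cadmium and Cd for cadmium, and the codes are used as names below. Design text mentions 3 biological replicates per treatment, but nothing says whether a library pools them. All p-values therefore measure the spread between libraries of different treatments. In whole roots, more cells of a type and more RNA per cell cannot be told apart.

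Cadmium is a toxic metal with no known nutritional role in higher plants. It enters roots partly through carriers of essential divalent metals such as iron and zinc, and it binds thiol groups of proteins. Plant roots answer it in general with thiol peptides that bind the metal, with vacuolar sequestration, and with antioxidant and protein repair systems. Neither the deposited tables nor any reference used here pairs the IDs with gene names or descriptions, so no role is assigned to any member, and no list of cadmium or iron genes could be counted. For the same reason the root label was not checked against marker genes.

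Most members had low levels without cadmium, though some were abundant in every library. Their median level was 3.45 CPM in the control, 3.24 and 3.89 CPM with FeCl3 at 50 and 200 µM, 3.29 CPM in B50CK and 4.49 CPM in B200CK. With cadmium it was 29.8 CPM without an iron salt, 28.0 and 26.1 CPM with FeCl3 at 50 and 200 µM, 43.4 CPM in B50Cd and 40.9 CPM in B200Cd. The medians with and without cadmium did not overlap, a gap that the rule favours because it required every member to be higher with cadmium in each pair. The highest medians were those of the sulfate libraries coded with cadmium. The mean without cadmium was under 5 CPM for 73 members, which passed the level limit through the libraries with cadmium. Over all 21594 genes the median lay between 14.6 and 16.9 CPM in every library. Together the members held 0.132% to 0.184% of the counts of a library coded without cadmium and 1.13% to 1.68% of one coded with it. Without the single most abundant member these shares were 0.112% to 0.161% and 0.943% to 1.30%. Total counts ran from 13635628 in the control to 19320820 with cadmium alone, and 3 counts correspond to 0.155 to 0.220 CPM.

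**Figure D1:**
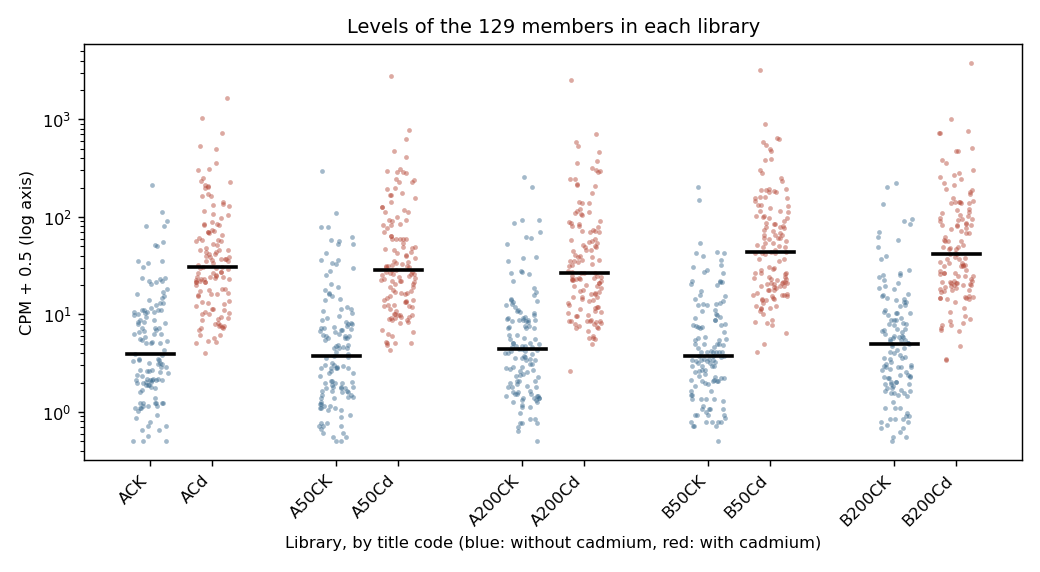
Level of each of the 129 members in each library, as CPM + 0.5 on a log axis, 1 point per member, with the black bar at the median. Libraries are grouped by pair, blue without and red with cadmium by title code, and the medians are about 3 to 5 on the blue side and 26 to 44 on the red side.

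In 125 of the 129 members every library coded with cadmium lay above every library coded without it, a pattern seen in 4.16% of all 21594 genes. The rule compared libraries within pairs, so it favours this pattern. In 105 members the lowest level with cadmium was at least 2-fold above the highest level without it (0.722% of all genes). The 4 members whose groups overlapped were TraesCS2A01G179000, TraesCS2A01G179300, TraesCS2B01G205800 and TraesCS5B01G541600, which are named because of that overlap. In the first 3 the control lay above the lowest level with cadmium. TraesCS2A01G179300, for instance, was at 8.29 CPM in the control and at 0.177 to 0.955 CPM in the other libraries without cadmium, against 6.72 CPM at 200 µM FeCl3 with cadmium. TraesCS5B01G541600 was instead low with cadmium alone, at 7.35 CPM, below its 14.9 CPM in B200CK.

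The members with the widest margin in their weakest pair came first by the rule for naming genes. TraesCS4B01G017500 was at 1.54, 0.275, 0.818, 1.14 and 0.945 CPM without cadmium (no iron salt, FeCl3 at 50 and 200 µM, B50CK and B200CK). In the partner libraries with cadmium, in the same order, it was at 39.1, 32.1, 39.6, 56.5 and 27.6 CPM. Its log2 difference was 4.28 in the weakest pair and 5.39 in the strongest. TraesCS4B01G017600, whose ID is the next on the same chromosome, was at 0.513, 0.605, 1.57, 0.572 and 1.77 CPM without cadmium and at 41.6, 46.7, 48.8, 64.4 and 31.1 CPM with it. Both IDs had their highest level in B50Cd and their lowest level with cadmium in B200Cd. The same pattern in adjacent IDs may involve near-identical copies, whose counts are uncertain because how reads with more than 1 match were counted is not stated.

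TraesCS6B01G007900 was the member whose level without cadmium varied most among these leading genes. It stood at 2.42, 1.32, 4.57, 10.4 and 9.33 CPM without cadmium and at 43.5, 165.2, 85.9, 160.1 and 189.9 CPM with it. Its log2 difference was 6.51 at 50 µM FeCl3 and 3.88 to 4.28 in the other 4 pairs. TraesCS1B01G021000 was at 0.220, 0.440, 0.614, 0.286 and 1.06 CPM without cadmium and at 13.3, 9.39, 11.2, 20.5 and 20.3 CPM with it. Its control value rests on 3 counts, so its fold in that pair is loosely set.

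Abundance per unit of gene length is given by the authors' FPKM, counts scaled to gene length and library total. TraesCS4B01G142200, with a length of 228 bp in the deposited table, was the most abundant member by far. It was at 934, 1302, 1116, 894 and 985 FPKM without cadmium and at 7240, 12236, 11100, 14210 and 16617 FPKM with it. No other ID of the whole table had a higher FPKM in the library of 50 µM FeCl3 with cadmium, in B50Cd or in B200Cd, and only 1 had a higher one in the other 2 libraries with cadmium. In the libraries without cadmium it ranked between 50 and 102 among all IDs. Its log2 difference in CPM was 2.95 without an iron salt and 3.23 to 4.07 in the iron-fed pairs.

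TraesCS4A01G250400 was next by FPKM, at 463, 456, 842, 621 and 848 without cadmium and at 2047, 3252, 2965, 2427 and 3041 with it. Already abundant in control roots, it showed some of the smaller differences (log2 1.81 to 2.83). TraesCS2B01G472900 was at 73.7, 48.4, 64.1, 38.9 and 82.6 FPKM without cadmium and at 213, 576, 537, 830 and 923 FPKM with it. TraesCS3B01G595100 was at 51.0, 58.3, 87.1, 40.8 and 79.2 FPKM without cadmium and at 211, 387, 499, 591 and 685 FPKM with it. These last 2 genes shared an order among the cadmium libraries, lowest without an iron salt, intermediate with FeCl3 and highest with the sulfate codes.

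**Figure D2:**
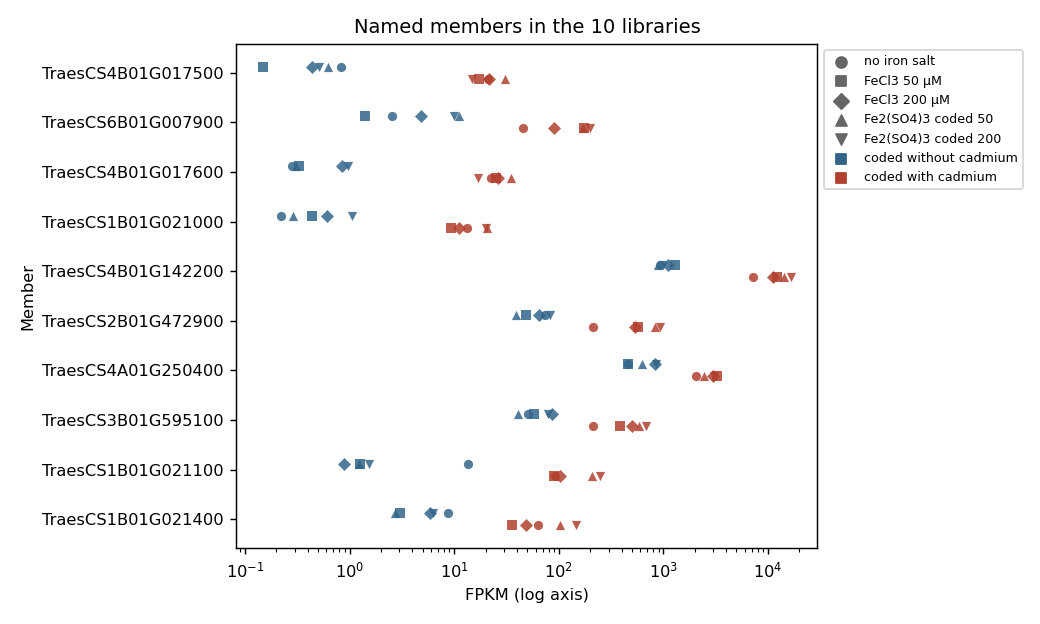
FPKM (log axis) of the 10 members named for their margin, abundance or position, in the 10 libraries, with blue symbols for libraries coded without and red for those coded with cadmium. Symbol shape gives the iron supply; the control (blue circle) of TraesCS1B01G021100 stands apart from the other blue symbols of that gene.

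Members differed from each other in the supply at which their difference was widest. The largest of the 5 differences fell in the pair B50Cd and B50CK for 46 members, in the pair B200Cd and B200CK for 32, in the pair without an iron salt for 26, at 50 µM FeCl3 for 17 and at 200 µM FeCl3 for 8. The smallest fell in the pair without an iron salt for 43 members and in the pair of B50Cd for 8. Median log2 differences were 2.56 without an iron salt, 2.89 and 2.58 at 50 and 200 µM FeCl3, 3.32 for B50Cd and 3.07 for B200Cd. The corresponding medians over all 21594 genes were 0.18, -0.11, -0.16, -0.10 and 0.07. In single pairs the limit of 1.5 was passed by 9.64% of all genes without an iron salt, by 3.59% and 6.0% at 50 and 200 µM FeCl3, by 6.47% for B50Cd and by 4.79% for B200Cd. The spread between a member's largest and smallest difference had a median of 1.92 and ran from 0.55 to 4.74, with 12 members under 1. Among the 5 libraries coded with cadmium the members also varied more than other genes did, with a median SD of 0.62 on the log2(CPM + 0.5) scale against 0.36 over all genes. Without cadmium the medians were 0.59 and 0.49. The highest of the 5 levels with cadmium was in B200Cd for 55 members, in B50Cd for 25 and with cadmium alone for 24, while the lowest was with cadmium alone for 48. A log2 difference of at least 3 in every pair was reached by 8 members and one of at least 2 by 62.

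**Figure D3:**
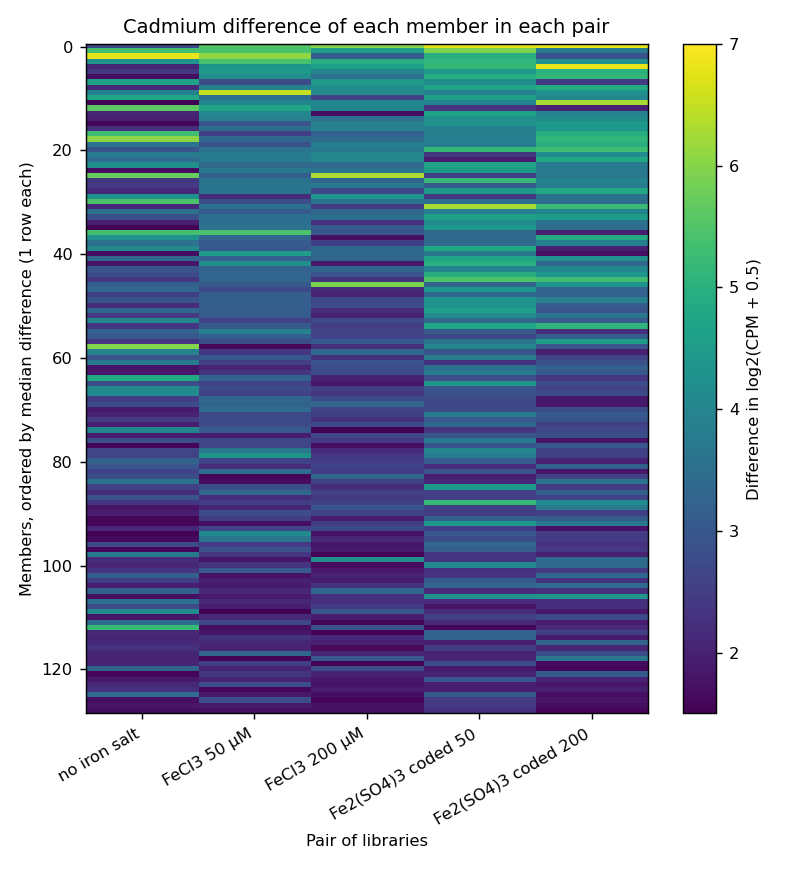
Difference in log2(CPM + 0.5) between the libraries with and without cadmium (colour, from 1.5 upward) for the 129 members, 1 row each and ordered by their median over the 5 pairs, which are the columns. Few rows keep 1 colour across all columns, and the brightest cells are spread over all 5 pairs, with the sulfate column coded 50 holding the largest value of 46 members.

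The limits of the choice were close for several genes. Just inside were TraesCS2B01G315600, with a smallest log2 difference of 1.51 at 200 µM FeCl3 (3.14 against 9.88 CPM), and TraesCS1A01G325500, with 1.52 at 50 µM FeCl3 (4.23 against 13.0 CPM). Just outside were TraesCS7B01G270000, with 1.498 at 200 µM FeCl3 (4.84 against 14.6 CPM), and TraesCS3B01G256400, with 1.49 without an iron salt (5.43 against 16.1 CPM). A further 165 genes had a smallest difference between 1 and 1.5. Counts of 3 or fewer touched few members. Of 645 values without cadmium, 8 were 0 counts and 20 were 1 to 3 counts, in 16 members together. A difference there depends most on the added 0.5 CPM. Differences from other low levels are also made smaller by it, and the lower quartile of the members was 1.15 to 1.57 CPM in the libraries without cadmium. The lowest count of any member in a library with cadmium was 37.

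Genes chosen on some pairs were also read in a pair whose difference was not used, since the pairs share no library. Genes over the limit in 4 pairs were counted in the fifth. The level limit still used all 10 libraries, the left-out pair included. Without the pair lacking an iron salt 209 genes were chosen, of which 129 (61.7%) passed 1.5 in that pair and 189 were above 0. For the pair at 50 µM FeCl3 the numbers were 129 of 156 (82.7%), and 155 were above 0. At 200 µM FeCl3 129 of 183 passed (70.5%) and 181 were above 0. For the pair of B50Cd 129 of 154 passed (83.8%) and 142 were above 0, and for the pair of B200Cd 129 of 155 passed (83.2%) and 152 were above 0. Set beside the 3.59% to 9.64% of all genes that passed in single pairs, the shares were high in every left-out pair, and the lowest belonged to the pair that holds the control. The genes that passed were the 129 members each time. The shares therefore differ only in the number of genes chosen and are not independent of each other. Of the 209 genes chosen without that pair 6 were at least 2-fold lower in it, as were 5 of 154 for the pair of B50Cd, 1 of 155 for the pair of B200Cd and 0 for both FeCl3 pairs. With the level limit taken over the 8 choosing libraries alone, added after seeing the data, the shares that passed ran from 62.3% to 83.8%.

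**Figure D4:**
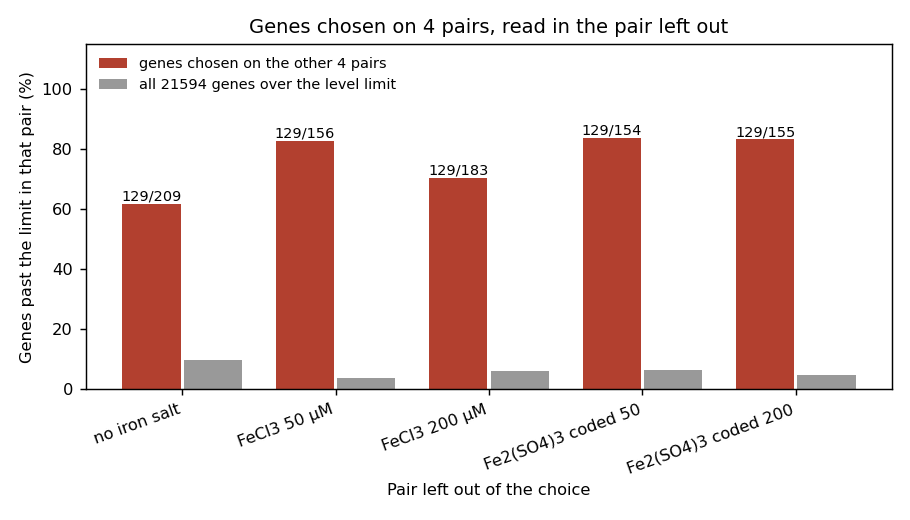
Percentage of genes with a log2 difference of at least 1.5 in the pair named on the x axis, for genes chosen on the other 4 pairs (red, with the numbers of genes) and for all 21594 genes (grey). Red bars run from 61.7% to 83.8% and grey bars from 3.59% to 9.64%.

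The 3 pairs whose labels do not conflict, without an iron salt and with FeCl3 at both doses, chose 220 genes, which include the 129. Their median level was 23.7 CPM in B50Cd and 25.6 CPM in B200Cd, against 5.32 CPM in B50CK and 4.64 CPM in B200CK. In the 6 libraries that chose them it was 25.6 to 26.6 CPM with cadmium and 2.71 to 3.99 CPM without. Read by title code, 155 of the 220 (70.5%) were higher by at least 1.5 in B50Cd than in B50CK and 154 (70.0%) in B200Cd than in B200CK. Read by treatment text, which pairs B200Cd with B50Cd and B50CK with B200CK, the limit was passed by 8 and 29 of the 220, beside 1.06% and 6.17% of all genes. The labels alone do not settle which reading is right.

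The cadmium difference of these 220 genes was then tested in the 4 sulfate libraries, whose differences had no part in choosing them, although their levels entered the limit of 5 CPM. With edgeR's quasi-likelihood test on the whole table, cadmium and dose read by code, 48 of the 218 genes that could be tested were called at a Benjamini-Hochberg adjusted p under 0.05, and all 48 were higher with cadmium. Of all 51717 genes tested, 0.248% were called higher and 0.0309% lower. Among genes over the level limit of the rule, 0.426% were called higher and 0.0371% lower. With the level limit taken over the 6 other libraries alone, an alternative added after seeing the data, 40 of 209 tested genes were called, all higher. At an unadjusted p under 0.05 the list of 220 had 170 higher and 4 lower genes, beside 6.73% and 4.43% of all genes. The smallest p values belonged to TraesCS1B01G021100 (log2 fold 7.42 ± 0.60, SE, adjusted p = 0.0294 with edgeR) and TraesCS2A01G179300 (6.87 ± 0.55, adjusted p = 0.0294). Both are members, so the rule had already required them to be higher in these 2 pairs. The level of TraesCS2A01G179300 in B200CK rests on 3 counts. Lower in the sulfate libraries coded with cadmium, but not called, were TraesCS4A01G431300 (-3.57 ± 1.25, adjusted p = 0.318 with edgeR) and TraesCS1B01G209200 (-1.06 ± 0.41, adjusted p = 0.382), neither of them a member. TraesCS4A01G431300 was at 1.48 and 38.5 CPM in the 50 µM FeCl3 pair but at 12.8 and 0.0587 CPM in B50CK and B50Cd. Its level in B50Cd lies under that of 3 counts (0.176 CPM). The edgeR fit of the sulfate libraries leaves 1 residual degree of freedom. By treatment text none of the 220 was called, and limma on FPKM called none by code. Both settings called 0 of all 51717 genes tested.

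In the opposite direction, the sulfate pairs by code chose 528 genes, and these were tested in the 6 libraries without sulfate. None was called by edgeR (smallest adjusted p = 0.113), which called 0 of all 55236 genes tested. DESeq2 called 308 of the 528 and limma on FPKM 44, all higher. Of 21593 tested genes over the level limit DESeq2 called 906 higher and 279 lower, and limma 57 and 9. At an unadjusted p under 0.05 there were 379 higher and 0 lower, beside 7.35% higher and 4.64% lower of all 55236 genes tested. TraesCS4B01G017600 (log2 fold 5.86 ± 0.43) and TraesCS1A01G016800 (3.84 ± 0.35) led, both with an adjusted p of 0.113 in edgeR. Both are members, so the rule had already required them to be higher in all 3 pairs without sulfate. The smallest p values on the lower side belonged to TraesCS7A01G272100 (-1.01 ± 0.45, adjusted p = 0.453 with edgeR) and TraesCS2A01G592100 (-0.66 ± 0.30, adjusted p = 0.456), neither of them a member. Leaving out the control or the library with cadmium alone left only the other library without an iron salt, which its supply term absorbs. Both fits then read cadmium in the same FeCl3 libraries, so effect sizes alone are given. The median log2 fold of the 528 genes was 1.97 in both, against 0.05 and 0.06 for genes over the level limit.

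The members went both ways with FeCl3. The levels compared here also entered the rule, each against its partner library, so these counts are a description and not independent of the choice. With cadmium, 20 members were higher by 2-fold or more at 50 µM than without an iron salt and 26 were lower by as much, and 19 and 21 at 200 µM. All genes gave 10.6% higher and 13.2% lower at 50 µM, and 9.35% and 7.78% at 200 µM. The median log2 ratio of the members was 0.00 and 0.13 at the 2 doses. Without cadmium, 19 members were higher and 28 lower at 50 µM (14.7% and 10.3% of all genes), and 33 and 23 at 200 µM (19.6% and 13.3%). Both doses are set against the same libraries without iron. With cadmium, 17 members were at least 2-fold lower at both doses (5.58% of all genes) and 8 at least 2-fold higher at both (7.41%). Without cadmium 15 members were lower at both doses (6.96%) and 13 higher (10.4%). Between the doses, 14 members were higher and 9 lower at 200 than at 50 µM without cadmium (6.38% and 8.27% of all genes), and 11 and 10 with it (2.17% and 1.44%).

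The additive edgeR fit of the 6 libraries without sulfate, with cadmium and supply as terms, called no member for FeCl3, with a smallest adjusted p of 0.408 at the lower and 0.528 at the higher dose. It called 0 of all 55236 genes tested at either dose, so the absence of calls is not particular to the members. DESeq2 called 7 and 8 members and limma on FPKM none. Among genes over the level limit DESeq2 called 503 higher and 61 lower at 50 µM, and 168 and 83 at 200 µM. Limma called 0 of all genes tested. At an unadjusted p under 0.05 edgeR gave 18 higher and 14 lower members at 50 µM and 16 and 15 at 200 µM. For comparison, 6.06% and 3.16% of all genes tested were higher and lower at 50 µM, and 5.51% and 3.77% at 200 µM. Among genes over the level limit they were 9.11% and 2.61%, and 6.36% and 4.00%. Leaving out the control or the library with cadmium alone left only the other library without iron, so effect sizes alone are given. Without the control the members' median log2 fold was 0.46 at 50 µM and 0.34 at 200 µM, against 0.11 and 0.09 for genes over the level limit. Without the library with cadmium alone it was 0.12 and 0.09, against 0.00 and -0.05.

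Neighbouring members on chromosome 7A led on the higher side. TraesCS7A01G199700 was at 7.77, 35.5 and 26.4 CPM in the cadmium-free libraries at 0, 50 and 200 µM FeCl3, and its levels with cadmium were 58.1, 225.5 and 142.7 CPM. Its log2 fold was 2.27 ± 0.38 at 50 µM and 1.54 ± 0.37 at 200 µM (adjusted p = 0.408 and 0.528 with edgeR). TraesCS7A01G199600 was at 1.39, 9.24 and 4.57 CPM without and at 17.6, 58.7 and 27.4 CPM with cadmium, a log2 fold of 2.39 ± 0.39 at 50 µM. Both were higher with iron in 2 of 2 pairs at each dose, and neither reached the threshold. TraesCS4A01G350700 had a log2 fold of 1.96 ± 0.49 at 200 µM (adjusted p = 0.528 with edgeR), from 5.69 to 15.5 CPM in the presence of cadmium.

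On the lower side stood members with much higher levels under cadmium alone than under cadmium with FeCl3. TraesCS1A01G374500 was at 0.733, 0.0550 and 0.136 CPM in the cadmium-free libraries at these doses, and its levels with cadmium were 35.0, 4.69 and 2.13 CPM. Its log2 fold was -2.66 ± 0.57 at 50 µM and -3.52 ± 0.64 at 200 µM (adjusted p = 0.413 and 0.528 with edgeR). Its cadmium-free levels with FeCl3 lie under those of 3 counts (0.165 and 0.205 CPM), so that part of the folds is loosely set. In B50Cd and B200Cd TraesCS1A01G374500 was at 4.46 and 3.01 CPM, close to the FeCl3 libraries with cadmium. TraesCS2B01G205800 was at 26.9 CPM with cadmium alone and at 6.38 and 4.42 CPM with cadmium and FeCl3 (log2 fold -3.05 ± 0.55 at 200 µM, adjusted p = 0.528). TraesCS2A01G179300 went from 44.7 to 10.3 and 6.72 CPM in the same libraries (log2 fold -2.62 ± 0.58 at 50 µM, adjusted p = 0.419). Without cadmium both genes were lower with FeCl3 too. TraesCS2B01G205800 went from 4.69 to 0.715 and 0.341 CPM there, and TraesCS2A01G179300 from 8.29 to 0.605 and 0.955 CPM. These last 2 were high again in B50Cd, at 28.8 and 41.0 CPM, so that the FeCl3 libraries were the low ones among those coded with cadmium.

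Sulfate and chloride libraries differed for many members in the presence of cadmium, by title code. The rule used the levels in these libraries, each against its partner without cadmium. Counts of members in these comparisons are therefore a description and not independent of the choice. In B50Cd 37 members were higher by 2-fold or more than at 50 µM FeCl3 with cadmium and 5 were lower by as much, where all genes gave 3.45% and 6.50%. In B200Cd 34 were higher and 9 lower than at 200 µM FeCl3 with cadmium, beside 3.70% and 4.90% of all genes. In both comparisons, which share no library, 21 members were higher (0.801% of all genes) and 2 were lower (1.89%). Without cadmium the split was 15 higher and 11 lower for B50CK (4.84% and 4.33%) and 5 and 11 for B200CK (6.23% and 7.42%), with 0 members 2-fold higher in both (0.824%) and 1 lower in both (0.806%). Counting any size, both sulfate libraries coded with cadmium lay above both FeCl3 libraries with cadmium for 72 members (30.5% of all genes) and below them for 12 (19.9%). Without cadmium they lay above for 19 (10.8%) and below for 17 (17.4%). Median log2 ratios of the members were 0.51 and 0.69 with cadmium and -0.04 and 0.13 without. With TMM scaling the splits with cadmium were 28 to 6 and 29 to 9, and the medians 0.34 and 0.62. Without cadmium they became 12 to 14 and 12 to 9, the opposite direction to that by column total. A dose counts the salt, and Fe2(SO4)3 carries more iron per formula unit than FeCl3, so the salt and the amount of iron cannot be told apart. By treatment text B50Cd received no cadmium, and the comparison would not be one at equal treatment.

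**Figure D5:**
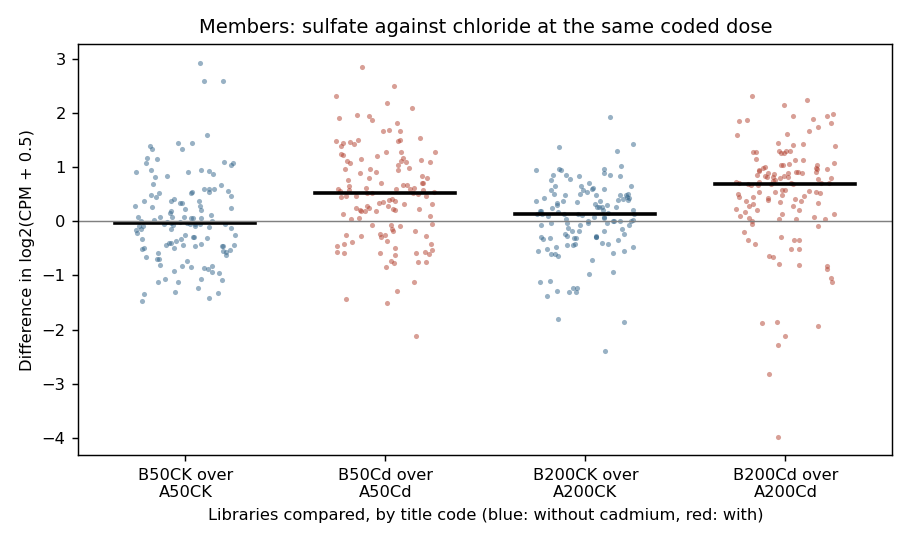
Difference in log2(CPM + 0.5) of each member between a sulfate library and the FeCl3 library of the same coded dose, blue without and red with cadmium, with black bars at the medians. The red medians lie at 0.51 and 0.69 and the blue ones at -0.04 and 0.13.

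No member passed the threshold for the salt. In the edgeR comparison of 4 sulfate with 4 FeCl3 libraries, in which cadmium and dose count as spread, 0 members were higher and 1 lower at an unadjusted p under 0.05 (1.59% and 1.98% of 50484 genes tested). After adjustment edgeR called 0 of these 50484 genes. DESeq2 and limma on FPKM also called no member. Of all genes tested DESeq2 called 4 higher and 13 lower, and limma 0. With cadmium and dose by code as covariates there were 25 higher and 9 lower at an unadjusted p under 0.05, beside 3.30% and 3.43% of all genes. A fit added after seeing the data, for the salts within the libraries coded with cadmium, gave 33 higher and 9 lower (2.35% and 4.06%). After adjustment it called no member and none of all genes tested (smallest adjusted p = 0.549 with edgeR). The levels in these libraries entered the rule, so this fit is not independent of the choice of members. The member with the smallest p in the comparison of 4 with 4, TraesCS7B01G417700, was lower with sulfate (log2 fold -3.73 ± 1.60, adjusted p = 0.999). With cadmium it was at 17.3 and 114.6 CPM at 50 and 200 µM FeCl3, and at 3.58 and 6.82 CPM in B50Cd and B200Cd. TraesCS3A01G260100 was likewise lower with sulfate (-1.55 ± 0.91, adjusted p = 0.999 with edgeR). On the higher side TraesCS1A01G017300 was at 12.1 and 25.8 CPM in the FeCl3 libraries with cadmium and at 90.2 and 95.7 CPM in B50Cd and B200Cd (2.21 ± 1.46, adjusted p = 0.999 with edgeR). TraesCS6A01G058300 had a log2 fold of 1.74 ± 1.15 and went from 15.6 and 13.9 CPM to 44.9 and 67.3 CPM in the same libraries.

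Position and length, which the rule did not use, were compared with those of all 21594 genes. Subgenome A held 63 members (0.585% of its genes) and subgenome B 66 (0.609%). Every chromosome held at least 3, from 3 on 6A (0.239%) to 14 on 2B (0.780%) and 14 on 3B (0.816%), with the highest share on 1A (13 members, 0.882%). The median gene length was 996 bp for the members (quartiles 696 and 1404 bp) and 1259 bp for all genes (828 and 1835 bp). These shares and medians are descriptions, and no test of them was made.

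Some members lay close together. Counting IDs whose numbers differ by at most 1000 (10 steps of the numbering), 23 members (17.8%) fell into 11 groups, of which 10 were pairs. The largest was a group of 3 on chromosome 1B, TraesCS1B01G021000, TraesCS1B01G021100 and TraesCS1B01G021400. TraesCS1B01G021100 was at 9.53, 0.880, 0.614, 0.857 and 1.06 CPM without cadmium and at 64.6, 62.5, 70.8, 146.3 and 172.2 CPM with it, in the order of supplies used above. TraesCS1B01G021400 was at 6.23, 2.14, 4.23, 1.93 and 4.49 CPM without cadmium and at 45.3, 25.4, 34.4, 73.2 and 104.5 CPM with it. All 3 IDs of the group were higher in each sulfate library coded with cadmium than in any other library. The 681 other genes near a member, which by construction did not meet the rule, had a median log2 difference of -0.06 to 0.29 in the 5 pairs. Of these 681, 13 (1.91%) were at least 2-fold higher in all 5 pairs, against 0.731% of the 20784 genes farther away, and 14.0% against 8.54% were higher by any amount in all 5. Whether neighbouring IDs are similar in sequence, and share reads, was not tested.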

How the data were processed

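RNA of wheat roots was sequenced in 10 libraries, 1 per treatment. The authors deposited 1 table of unnormalized counts and 1 of FPKM. The submitters' processing notes list Bowtie2 2.0.6 and TopHat2 2.0.12. For the counting program, genome build, filters and strand setting, nothing was given in the sources used here. The deposited FPKM values equal the counts divided by library total and by 1 length per gene (largest difference 0 bp over 107370 genes). CPM were computed by column total, and 0.5 CPM was added before logarithms.

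The members, the lists and the tests were chosen with earlier results of these data known. Named are the 4 members with the widest smallest difference, the 4 with the highest mean CPM with cadmium, 2 genes on each side of the limit, the largest group of neighbouring IDs, and the 2 smallest p per direction in each test. Genes outside this rule are named as such. The count test was edgeR 4.0.16 (quasi-likelihood F test, TMM, filterByExpr) under R 4.3.3, with Benjamini-Hochberg adjustment over all genes tested. Each SE came from the log2 fold and its F value (fold over root F). DESeq2 1.42.0 and limma 3.58.1 were alternatives. The fits were tested on simulated data.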

Additional observations from a re-analysis of the deposited data

Results flagged for a closer look

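Levels of the named members and the members' summed and median levels were searched for a library far from the other 4 of its kind, by title code. Among 28 sets of 5 libraries 1 had such a library, and about 1.4 are found by chance. TraesCS1B01G021100 was at 9.53 CPM in the control, against 0.614 to 1.06 CPM in the other libraries coded without cadmium. Its neighbour on the same chromosome, TraesCS1B01G021400, was also highest in the control among these libraries, at 6.23 CPM.

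Outside the chromosomes and ID types of the rule, 20 of 4022 IDs with a mean of at least 5 CPM met the same limits in all 5 pairs (0.497%). They comprised 11 LC IDs of subgenomes A and B, 5 IDs of subgenome D, 2 unplaced IDs and 2 IDs without the TraesCS prefix. Their median of mean levels was 5.17 CPM without and 51.0 CPM with cadmium. The subgenome D IDs were TraesCS7D01G019400, TraesCS1D01G014500, TraesCS5D01G325900, TraesCS2D01G451200 and TraesCS3D01G039400. TraesCS1D01G014500 was at 2.03 to 13.2 CPM without and 63.4 to 211.1 CPM with cadmium. The unplaced ones were TraesCSU01G051900 and TraesCSU01G042400. These IDs are named because their group is small. A tetraploid wheat has no D chromosomes, and whether such counts come from A or B copies was not tested.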

How the results depend on the processing

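The number of members depended most on the limits themselves and on the label reading. It was 294 at a smallest log2 difference of 1 and 62 at 2, 220 with the 3 pairs of matching labels, 154 to 209 when a pair was left out (209 without the pair of the control), and 2 when the sulfate pairs were read by treatment text, neither of them among the 129. It was 114 and 143 with 1 and 0.1 CPM added, 172 and 91 with a mean of at least 1 and 10 CPM, and 129 with FPKM, of which 126 were shared. TMM moved the median difference of all genes by -0.23 to 0.24 and gave 140 genes, 114 of them shared. DESeq2 size factors gave 137, 112 shared. Calls moved with tool and filter, and the cause was not tested. DESeq2 called 7 and 8 members for FeCl3 at 50 and 200 µM, 143 of the 220 genes and 308 of the 528. Among genes over the level limit it called 503 higher and 61 lower, 168 and 83, 628 and 191, and 906 and 279, in the same order. With every counted gene kept edgeR called 13, 9, 156 and 333. Among genes over the level limit that setting called 710 higher and 131 lower, 347 and 205, 848 and 322, and 1134 and 419. Limma on FPKM called 0 of the 220 and 44 of the 528, and the treatment text 0 of the 220. Leaving out a library gave 0 to 16 and 0 to 15 members for FeCl3, 0 for the salt, and 1 to 357 of the 528; with 4 sulfate libraries it could not be fitted. For FeCl3, members were called only in the fits without the control or without the library with cadmium alone. The highest count of the 528 also came from the fit without the control. Those fits keep only the other library without an iron salt, so their calls are not read as a result. Genes outside the members were called there too, in both directions. Of 232 values of genes named by their p, 190 kept direction and side of the threshold, 36 passed it, 2 lost it and 4 reversed. The reversals came with the treatment text in the sulfate libraries: log2 -0.0042 for TraesCS1B01G021100, -0.29 for TraesCS2A01G179300, 2.25 for TraesCS4A01G431300 and 0.25 for TraesCS1B01G209200. Pairing by replicate was not possible because the labels give no replicate numbers. Libraries are matched by iron supply or dose, which is already a term of the cadmium tests.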
